A study of Mus musculus with 16 samples.

Results

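Expression of 10 marker genes of the hormone-sensing luminal cells of the mouse mammary gland was followed through 4 sorted epithelial populations of Cpeb2 knockout and wild-type mice. The 10 genes were Cited1, Agtr1a, Stc2, Prss23, Fgg, Cdo1, Ctse, Plac8, Kif5c and Slc35f3, out of 17097 genes measured. They were chosen by their measured values: each was high in the non-clonogenic luminal and ductal progenitor arrays and low in the alveolar progenitor arrays of these same mice. Those levels are therefore given as a description, without a test, and the tests concern the knockout and the difference between the 2 populations in which the genes were high.

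The arrays were hybridised with RNA from freshly sorted mammary cells of 4 female mice aged 10 weeks and 2 days, of strain C57BL/6J 129. Both knockout mice were Cpeb2 -/- and both wild-type mice Cpeb2 +/+, and all 4 carried Sox2-Cre +/+, so the Cre is shared by both genotypes and mice without it were not analysed here. Sox2-Cre acts in the early embryo, so a deletion by it is not limited to the mammary gland. Each mouse gave 4 arrays, which makes 16 arrays and 2 per genotype and population. Mouse 1 of each genotype came from one pair of parents and mouse 2 from another pair. Cells were sorted by surface antigens. Luminal cells, with high Epcam and low CD49f, gave 3 of the populations. Non-clonogenic luminal cells carried Sca1 without CD49b, ductal progenitors carried both, and alveolar progenitors carried CD49b without Sca1. Myoepithelial cells had low Epcam and high CD49f. Non-clonogenic luminal cells and ductal progenitors together are called Sca1 positive below; the gene for Sca1 itself was not analysed here.

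Cpeb2 encodes a protein that binds messenger RNA and controls its translation, and the comparison asks what its loss does to RNA levels in each population. On a log2 scale, Cpeb2 read 6.42 and 7.67 in knockout and 8.33 and 8.66 in wild-type non-clonogenic luminal cells, and was lower by 1.26 ± 0.29 over the Sca1 positive arrays (standard error, adjusted p = 0.0144 by limma). It was not called in any single population (adjusted p = 0.0933, 0.113, 0.925 and 0.449 in non-clonogenic luminal, ductal, alveolar and myoepithelial arrays), and in alveolar progenitors it read 5.45 and 4.81 in the knockout, against 5.52 and 5.53 in the wild type. Here and below a pair of values is mouse 1, then mouse 2, of that genotype, and each gene is read by its brightest probe set over the 16 arrays. Averaged over each list, markers of alveolar progenitors and of myoepithelial cells were highest in their own arrays. Single genes could differ: Csn2, of the alveolar list, averaged 7.61 in both alveolar progenitors and non-clonogenic luminal cells. Myoepithelial markers averaged 12.00 to 12.23 in the myoepithelial arrays and 6.09 to 7.09 elsewhere, alveolar markers 10.11 to 10.59 in alveolar progenitors, 8.33 to 9.26 in ductal progenitors and 6.52 to 6.94 in the other arrays. The 13 other hormone-sensing markers, among them Esr1 and Pgr, averaged 9.17 to 10.25 in the Sca1 positive arrays against 7.36 to 7.84 in alveolar progenitors. Of these, Tnfsf11, the RANKL gene, averaged 5.30 in non-clonogenic luminal cells and 5.25 in alveolar progenitors, and Xbp1 10.91 and 10.85. Leukocyte markers averaged 5.36 to 5.86 and hepatocyte markers 5.58 to 5.94 in all 16 arrays, while the 2 measured red cell markers averaged 7.73 to 8.89 and fibroblast markers 5.70 to 8.12. Hba-a1, of the red cell markers, was at 9.70 to 11.96.

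Luminal cells of the mammary gland fall into a hormone-sensing lineage, which carries the estrogen and progesterone receptors, and an alveolar lineage, which makes milk. Hormone-sensing cells read the ovarian hormones and pass the message to their neighbours through secreted ligands such as RANKL and Wnt4. The 10 genes hold a coregulator of the estrogen receptor, a hormone receptor, 3 secreted proteins, 2 enzymes and 3 proteins of other roles inside the cell.

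Promoter windows are shown because the estrogen receptor reaches its targets through the core motif GGTCA, alone or as a facing pair. RefSeq windows of build GRCm38.p6, running from 250 bases before to 50 bases after a transcription start, matched 7 of the 10 genes with 17 windows. The core motif, searched on both strands (TGACC on the opposite strand), lay in 9 of the 17 windows, against 40.5% of all 32851 windows in the table. Overlapping windows of Prss23 share 1 of these sites. At least 1 window held the motif in 6 of the 7 genes, the exception being Plac8. No share over all genes was counted, and a gene with more windows, such as Prss23 with 7, is more likely to hold it. The facing pair, which is GGTCA followed after any 3 bases by TGACC, lay in 0 of the 17 windows, and in 0.07% of all windows. TGTTTAC, a forkhead motif of the kind Foxa1 binds, lay in 0 windows (3.65% of all). The motif of GATA factors such as Gata3, searched as AGATAA, lay in 1 window of Prss23 (11.2% of all). These counts over letters say nothing about binding. The window of the first listed start of Cited1 (chrX:102252132-102252431 on the minus strand) and those of Stc2 (chr11:31370012-31370311 on the minus strand), Fgg (chr3:83007474-83007773 on the plus strand) and Kif5c (chr2:49619036-49619335 on the plus strand) are printed with the core motif, on either strand, in capitals, as the genes whose values the results below turn on.
Cited1: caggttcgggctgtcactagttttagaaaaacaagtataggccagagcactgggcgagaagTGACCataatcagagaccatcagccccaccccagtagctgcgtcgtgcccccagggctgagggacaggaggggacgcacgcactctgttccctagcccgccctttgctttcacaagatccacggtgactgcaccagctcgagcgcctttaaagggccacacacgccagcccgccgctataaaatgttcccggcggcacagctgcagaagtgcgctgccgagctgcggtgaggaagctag
Stc2: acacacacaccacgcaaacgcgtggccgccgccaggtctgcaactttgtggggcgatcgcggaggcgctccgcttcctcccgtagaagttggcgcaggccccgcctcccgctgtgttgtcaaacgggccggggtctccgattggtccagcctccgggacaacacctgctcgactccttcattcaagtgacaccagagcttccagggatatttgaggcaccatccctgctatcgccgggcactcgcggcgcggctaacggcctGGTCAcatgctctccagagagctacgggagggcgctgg
Fgg: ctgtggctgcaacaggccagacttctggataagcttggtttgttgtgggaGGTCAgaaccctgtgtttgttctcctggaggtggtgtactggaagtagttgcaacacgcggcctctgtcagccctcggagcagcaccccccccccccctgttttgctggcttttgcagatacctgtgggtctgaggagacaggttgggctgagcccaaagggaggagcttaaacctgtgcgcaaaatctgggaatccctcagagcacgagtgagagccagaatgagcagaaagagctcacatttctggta
Kif5c: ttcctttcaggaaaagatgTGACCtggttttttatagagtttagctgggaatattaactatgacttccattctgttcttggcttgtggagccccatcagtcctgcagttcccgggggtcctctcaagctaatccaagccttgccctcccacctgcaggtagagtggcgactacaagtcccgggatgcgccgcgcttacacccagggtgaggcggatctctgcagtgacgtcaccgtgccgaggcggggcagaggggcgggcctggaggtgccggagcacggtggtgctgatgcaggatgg
The capitals stand at different distances from the start in the 4 windows, and in the Stc2 window they lie downstream of it.

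As selected, all 10 genes were higher in the 8 Sca1 positive arrays than in the 4 alveolar arrays, by 3.40 (Stc2) to 4.79 in log2, with a median of 4.54 against 0.02 over all genes. The lowest Sca1 positive array stood above the highest alveolar array in every one of the genes, by 1.68 for Cited1 and 3.93 for Prss23 at the extremes. The highest alveolar Cited1 value, 8.71, was that of wild-type mouse 1, and the other 3 were 6.00 to 6.68. In bulk RNA from sorted cells, fewer cells of a type and less RNA per cell cannot be told apart.

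**Figure D1:**
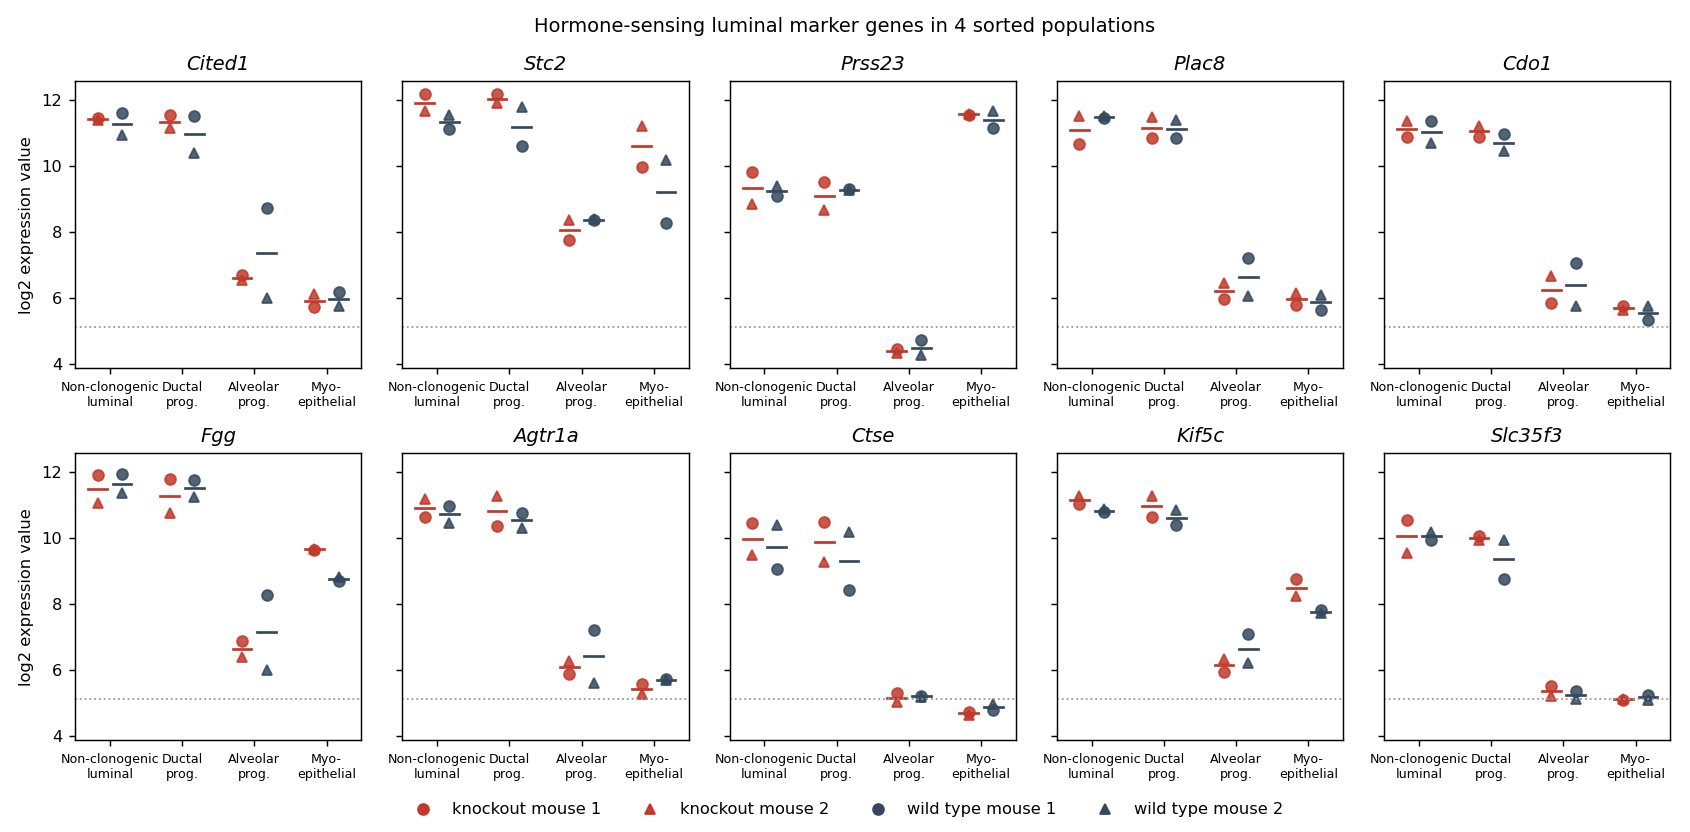
log2 expression value (vertical axis) of each of the 10 genes in the 4 populations (horizontal axis), knockout in red left of wild type in dark blue, circles for mouse 1, triangles for mouse 2 and short lines for the mean of 2 arrays. The dotted line is the lower quartile of all probe sets, 5.13, and the myoepithelial points split the genes into 4 that are well above it and 6 that are near it.

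The myoepithelial arrays, which the rule did not use, split the genes. Cited1, Plac8, Cdo1, Agtr1a, Ctse and Slc35f3 had mean levels of 4.78 to 5.95 there, below their own alveolar means. Stc2, Fgg and Kif5c had myoepithelial means of 9.90, 9.21 and 8.12, between their alveolar and their Sca1 positive levels. Prss23 was highest in myoepithelial cells, at 11.13 to 11.67, against 8.66 to 9.80 in the Sca1 positive and 4.26 to 4.73 in the alveolar arrays. The alveolar values of Prss23, all 4 myoepithelial values of Ctse and some values of Slc35f3 and Ctse were under 5.13, the lower quartile over the array's probe sets, which makes differences against them lower bounds in size. The ranges are given as a description, and no test was made of them.

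No gene of the 10 was called in the knockout in any population, at a Benjamini-Hochberg adjusted p under 0.05 over all genes by limma. In non-clonogenic luminal cells 0 of 10 were called, where 2.06% of all genes were, and in ductal progenitors 0 of 10, where 7.44% were. In alveolar progenitors 0 of 10 were called against 0.62% of all genes, and in myoepithelial cells 0 of 10 against 1.01%. Over the mean of both Sca1 positive populations 0 of 10 were called against 17.1% of all genes, of which 1317 were higher and 1599 lower. This comparison had smaller errors than those within 1 population, but the arrays of both populations came from the same mice. The model used 1 mouse correlation, 0.0383, for all genes. For a gene that differs more between mice than that, errors and adjusted p-values over the Sca1 positive arrays are too small. At an unadjusted p under 0.05 the members numbered 0, 0, 0, 2 and 0 in these 5 comparisons, and all genes 2919, 4802, 1624, 2434 and 5980.

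The 2 genotypes' values did not overlap for 2 of 10 genes in non-clonogenic luminal cells (50.8% of all genes), 1 in ductal progenitors (60.4%), 0 in alveolar progenitors (44.1%) and 4 in myoepithelial cells (41.5%). Nothing was read from these shares beyond the arrays themselves. Their median knockout difference was 0.12 in non-clonogenic luminal cells, 0.34 in ductal progenitors, -0.32 in alveolar progenitors and 0.11 in myoepithelial cells, against 0.03, 0.08, 0.00 and -0.03 over all genes. The knockout effect in the Sca1 positive populations minus that in the other 2 populations, an interaction test, called 0 of 10 members and 4.71% of all genes.

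**Figure D2:**
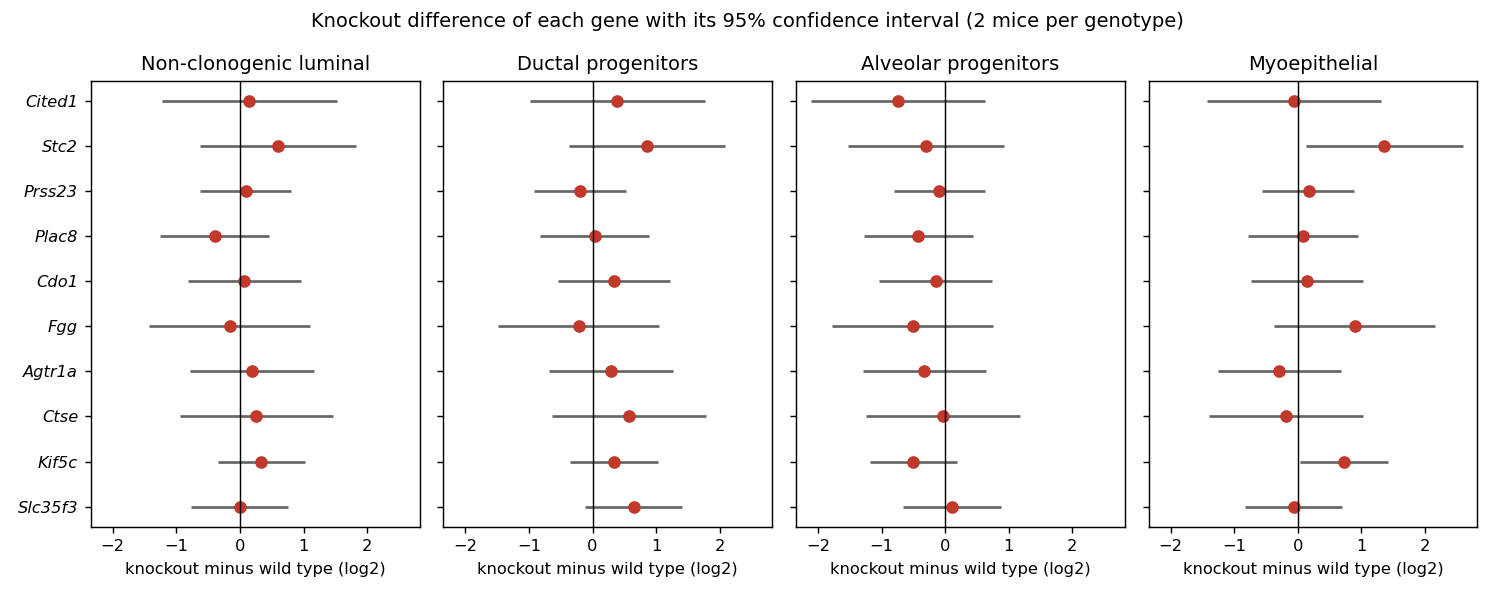
Knockout minus wild type in log2 (horizontal axis) for each gene (rows) in the 4 populations (panels), with points for the fitted difference and bars for its 95% confidence interval. The bars cross 0 in all cases but Stc2 and Kif5c in myoepithelial cells, whose adjusted p-values are 0.296 and 0.32.

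The intervals were wide. Over the Sca1 positive arrays the standard errors ran from 0.23 to 0.45 and the 95% confidence intervals together from -1.11 to 1.61, so changes of 1 log2 unit lie inside the interval of some members. A p that misses the threshold does not show that the genes are equal in both genotypes.

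Cited1 encodes a transcriptional coactivator that binds CBP and p300 and enhances estrogen receptor activity. Its values were 11.44 and 11.39 in knockout and 11.59 and 10.94 in wild-type non-clonogenic luminal cells, and 11.53 and 11.15 in knockout and 11.51 and 10.39 in wild-type ductal progenitors. The genotypes overlapped in non-clonogenic luminal and in ductal cells, and the knockout difference over both was 0.27 ± 0.45 (adjusted p = 0.689, limma). In alveolar progenitors Cited1 read 6.68 and 6.54 in the knockout, against 8.71 and 6.00 in the wild type, a single high value in wild-type mouse 1. Its relatives did not share its pattern: Cited2 averaged 11.81 in alveolar progenitors, 10.06 in ductal progenitors and 7.86 in non-clonogenic luminal cells, and Cited4 stayed between 5.52 and 6.51 in all arrays.

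Agtr1a encodes the type 1 receptor for angiotensin II, and the mouse has a second copy, Agtr1b. Agtr1a read 10.64 and 11.17 in knockout and 10.97 and 10.45 in wild-type non-clonogenic luminal cells, and 10.37 and 11.27 in knockout and 10.75 and 10.30 in wild-type ductal progenitors. Mouse 2 was the higher of the knockout pair and mouse 1 the higher of the wild-type pair in both populations, and the difference over both was 0.24 ± 0.32 (adjusted p = 0.608, limma). Agtr1b and Agtr2, the other angiotensin receptors, were under the lower quartile in all 16 arrays, at 4.05 to 4.74. Of 7 measured genes of the renin-angiotensin system other than Agtr1a, 2 were called over the Sca1 positive arrays, where 17.1% of all genes were: Ace, the converting enzyme, was higher in the knockout by 0.67 ± 0.14 (adjusted p = 0.00792) and Atp6ap2, the prorenin receptor, lower, at -0.29 ± 0.08 (adjusted p = 0.0235). Both calls were lost without either knockout mouse or without wild-type mouse 1, with adjusted p up to 0.117 for Ace and 0.198 for Atp6ap2.

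Among the secreted proteins, Stc2 encodes stanniocalcin-2, a glycoprotein hormone that inhibits the protease PAPP-A. Stc2 read 12.17 and 11.66 in knockout and 11.12 and 11.53 in wild-type non-clonogenic luminal cells, and 12.17 and 11.90 in knockout and 10.59 and 11.78 in wild-type ductal progenitors. The genotypes did not overlap in either, but wild-type mouse 2 lay within 0.14 of the lower knockout value, and the difference over both was 0.72 ± 0.41 (adjusted p = 0.221, limma). In myoepithelial cells Stc2 read 9.97 and 11.20 in the knockout, against 8.27 and 10.17 in the wild type. Each knockout mouse exceeded the wild-type mouse of its parents, by 1.70 and 1.02, and the 2 genotypes overlapped, with a difference of 1.36 ± 0.56 (adjusted p = 0.296, limma). The second brightest probe set of Stc2 gave a difference of 0.27 in the same arrays. Endothelial markers were also higher in the knockout in these arrays, averaging 6.76 and 7.35 in the knockout and 6.42 and 6.47 in the wild type. Red cell markers were lower, averaging 8.10 and 8.21 in the knockout and 8.81 and 8.89 in the wild type. Cd74, from the leukocyte list, was called lower, at -1.19 ± 0.16 (adjusted p = 0.00572, limma). So was Cnn1, from the myoepithelial list, at -0.76 ± 0.14 (adjusted p = 0.0307, limma). The part of these markers in the Stc2 values was not tested. Stc1, the only relative, stayed between 5.10 and 6.17.

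Fgg encodes the gamma chain of fibrinogen, the clotting protein that the liver secretes as a hexamer of alpha, beta and gamma chains. Fgg read 11.91 and 11.04 in knockout and 11.92 and 11.36 in wild-type non-clonogenic luminal cells, and 11.79 and 10.75 in knockout and 11.75 and 11.24 in wild-type ductal progenitors. Mouse 1 was the higher in both genotypes and both populations, and the knockout difference was -0.19 ± 0.42 (adjusted p = 0.764, limma). Fgb, the beta chain, had the same luminal pattern, at 9.63 to 11.39 in the Sca1 positive and 6.08 to 7.36 in the alveolar arrays, but was 5.59 to 5.95 in myoepithelial cells, where Fgg was 8.70 to 9.67. Fga, the alpha chain, was under the lower quartile in all 16 arrays, at 4.30 to 4.58. The hepatocyte markers averaged no more than 5.94 in any array, with Alb alone at 6.14 to 6.63 and Ttr at 6.19 to 6.97. In myoepithelial cells Fgg read 9.63 and 9.67 in the knockout, against 8.70 and 8.81 in the wild type, which did not overlap, with a difference of 0.90 ± 0.58 (adjusted p = 0.534, limma).

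Prss23 encodes a secreted serine protease. It read 9.80 and 8.84 in knockout and 9.08 and 9.38 in wild-type non-clonogenic luminal cells, and 9.51 and 8.66 in knockout and 9.29 and 9.27 in wild-type ductal progenitors. The knockout mice lay on either side of the wild-type mice in both, and the difference was -0.05 ± 0.24 (adjusted p = 0.897, limma). Of the 5 other PRSS genes measured, Prss35 was called over the Sca1 positive arrays, higher by 0.13 in log2 (adjusted p = 0.0463) at a level under the lower quartile, and the call was lost without any 1 of the 4 mice.

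Of the enzymes, Cdo1 encodes cysteine dioxygenase, which oxidises cysteine on the way to taurine. Cdo1 read 10.86 and 11.36 in knockout and 11.37 and 10.70 in wild-type non-clonogenic luminal cells, and 10.88 and 11.20 in knockout and 10.95 and 10.45 in wild-type ductal progenitors. The genotypes overlapped in both, and the difference was 0.20 ± 0.29 (adjusted p = 0.641, limma). Of 9 other measured genes of cysteine and taurine metabolism, 2 were called higher and 1 lower over the same arrays, against 17.1% of all genes in either direction. Gclc, the catalytic subunit of the enzyme that begins glutathione synthesis from cysteine, was higher by 0.85 ± 0.15 (adjusted p = 0.00398), Csad, the decarboxylase after Cdo1, was higher by 0.89 ± 0.25 (adjusted p = 0.0294), and Ado, the other thiol dioxygenase, was lower, at -1.03 ± 0.24 (adjusted p = 0.0148). Gclc lost its call without either knockout mouse (adjusted p = 0.102 and 0.0669). Csad and Ado lost theirs without either knockout mouse or wild-type mouse 1, with adjusted p up to 0.231 and 0.191, and without wild-type mouse 1 their differences shrank to 0.55 and -0.65.

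Ctse encodes cathepsin E, an aspartic protease of the endosome. It read 10.45 and 9.49 in knockout and 9.05 and 10.38 in wild-type non-clonogenic luminal cells, and 10.48 and 9.26 in knockout and 8.43 and 10.17 in wild-type ductal progenitors. The 2 families went opposite ways: the knockout mouse 1 exceeded the wild-type mouse of its parents by 1.40 and 2.06, whereas the knockout mouse 2 was below its own by -0.89 and -0.91. The difference over both was 0.41 ± 0.40 (adjusted p = 0.473, limma). Of 10 other cathepsins 2 were called, against the same 17.1%. Ctsl, a lysosomal cysteine protease, was called higher by 0.87 ± 0.15 (adjusted p = 0.00327), and Ctsc lower, at -1.21 ± 0.26 (adjusted p = 0.00962). Both lost the call without either knockout mouse, with adjusted p from 0.0523 to 0.148, and Ctsc was at -0.64 without wild-type mouse 1.

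Plac8 encodes a small cysteine-rich protein first described in placenta. It read 10.66 and 11.52 in knockout and 11.46 and 11.51 in wild-type non-clonogenic luminal cells, and 10.84 and 11.47 in knockout and 10.85 and 11.40 in wild-type ductal progenitors. The values of the ductal progenitors nearly coincided within each family, and the difference over both populations was -0.18 ± 0.28 (adjusted p = 0.673, limma).

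Slc35f3 belongs to the SLC35 family of solute carriers and has been described as a thiamine transporter. It read 10.54 and 9.55 in knockout and 9.92 and 10.18 in wild-type non-clonogenic luminal cells, and 10.06 and 9.94 in knockout and 8.76 and 9.94 in wild-type ductal progenitors. The low value of wild-type mouse 1 in ductal progenitors stood alone, and the knockout difference there was 0.65 ± 0.35 (adjusted p = 0.245, limma), the smallest adjusted p of the 10 genes in that population. That difference was 1.24 without the ductal array of wild-type mouse 2 (adjusted p = 0.025) and 0.06 without that of wild-type mouse 1 (adjusted p = 0.966). With 1 wild-type array left there, the spread comes from the other groups. Of the 5 other SLC35F genes 0 were called in any of the 7 comparisons.

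Kif5c encodes a heavy chain of kinesin-1, the motor that carries cargo along microtubules. It read 11.02 and 11.28 in knockout and 10.78 and 10.86 in wild-type non-clonogenic luminal cells, and 10.63 and 11.27 in knockout and 10.38 and 10.85 in wild-type ductal progenitors. The genotypes did not overlap in the first population and did in the second, and the difference over both was 0.34 ± 0.23 (adjusted p = 0.305, limma). In myoepithelial cells Kif5c read 8.75 and 8.23 in the knockout, against 7.80 and 7.72 in the wild type, a difference of 0.73 ± 0.32 (adjusted p = 0.32, limma). The part of the endothelial, red cell and other markers given above for the same arrays was not tested. Kif5b, the heavy chain found in most tissues, read 11.14 to 11.69 in all 16 arrays. Of 5 other kinesin-1 subunits, Klc1, a light chain, was called higher over the Sca1 positive arrays, by 0.88 ± 0.19 (adjusted p = 0.0108). That call was lost without either knockout mouse or wild-type mouse 1, with adjusted p of 0.066 to 0.156.

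**Figure D3:**
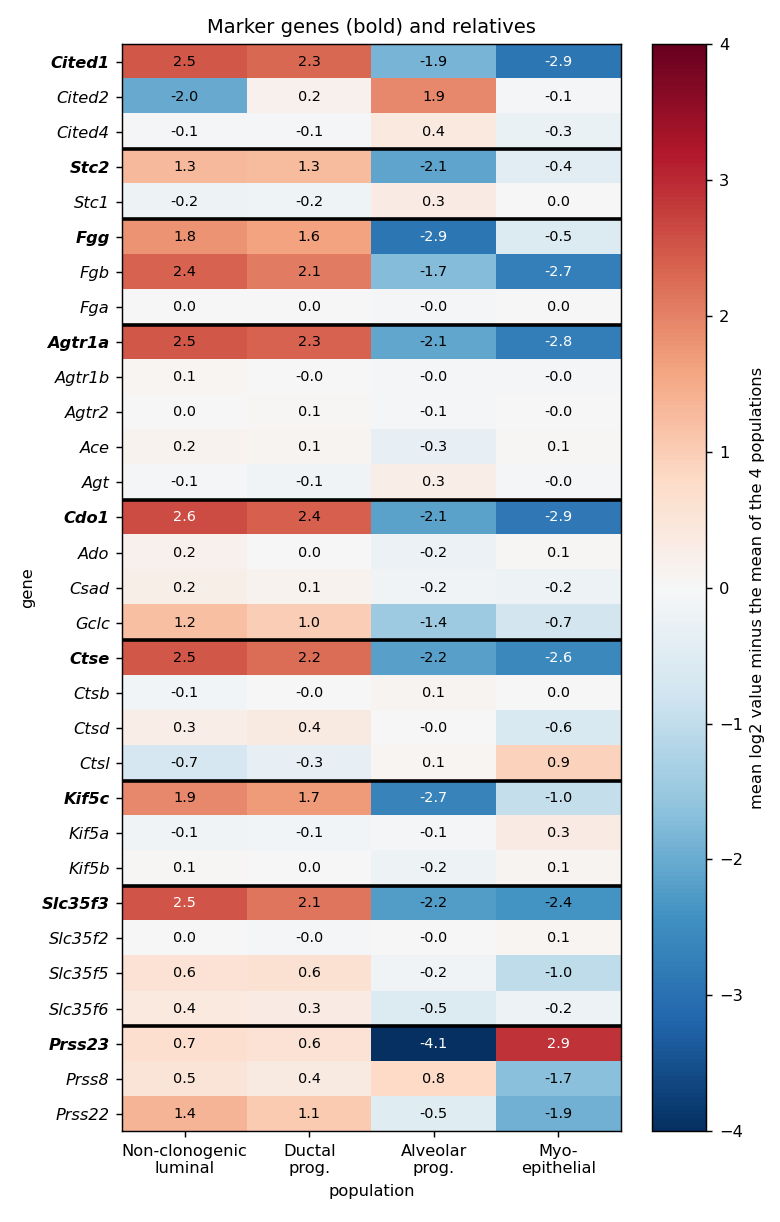
Mean log2 value of each gene in a population minus the mean of the 4 populations for that gene (colour and number), for the members in bold and relatives from the same family or pathway, so that a row is compared only with itself. Fgb and Gclc are, like Fgg and Cdo1, higher in the Sca1 positive columns than in the alveolar one, and Cited2 runs the other way from Cited1.

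For 3 of the 10 genes, Stc2, Prss23 and Kif5c, the array has 3 probe sets each, and the results above used the brightest. The brightest probe set of Prss23 carries the array maker's suffix for probes that can match more than 1 transcript. Over all probe sets the test called 14.5% of 45037 in the Sca1 positive arrays, 5.84% in ductal progenitors and 0.746% in myoepithelial cells.

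The probe sets of Kif5c differed in their call. The second brightest read 10.47 and 11.02 in knockout and 10.15 and 9.79 in wild-type non-clonogenic luminal cells, and 10.39 and 10.83 in knockout and 9.67 and 9.85 in wild-type ductal progenitors, with no overlap in either. Its difference over both was 0.81 ± 0.18 (adjusted p = 0.0145, limma over all probe sets). The dimmest was called too, at 0.67 ± 0.16 (adjusted p = 0.018), and in ductal progenitors alone at 0.82 ± 0.22 (adjusted p = 0.0499). The brightest had the same direction at 0.34 and was not called. The call of the second brightest was lost without wild-type mouse 1 (adjusted p = 0.078) and without knockout mouse 2 (0.57, adjusted p = 0.181). The dimmest lost its Sca1 positive call without wild-type mouse 1, wild-type mouse 2 or knockout mouse 2, with adjusted p from 0.0682 to 0.198, and its ductal call without any 1 mouse and with the parent pair as a block (adjusted p = 0.0524).

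Prss23 differed in the same way. Its dimmest probe set read 9.19 and 8.83 in knockout and 7.76 and 7.52 in wild-type myoepithelial cells, a difference of 1.37 ± 0.15 (adjusted p = 0.00263, limma over all probe sets). The brightest, 11.55 and 11.58 in the knockout and 11.13 and 11.67 in the wild type, differed by 0.17 ± 0.33. In the same arrays all 8 endothelial markers had a higher mean in the knockout, with a median difference of 0.59 and Kdr, a VEGF receptor, called at 0.61 (adjusted p = 0.0495, limma). Cd74 and Cnn1 were called lower there, as given above. The part of these markers in the Prss23 values was not tested. The call of the dimmest was lost without knockout mouse 1 (1.19, adjusted p = 0.114) or wild-type mouse 2 (1.25, adjusted p = 0.0619). The second brightest was called over the Sca1 positive arrays, at 0.83 ± 0.24 (adjusted p = 0.0428), and without knockout mouse 1 it fell to 0.39 (adjusted p = 0.336). It was not called without wild-type mouse 1 or wild-type mouse 2 either, at adjusted p of 0.211 and 0.083. Of Stc2, 0 of the 3 probe sets were called. From the brightest to the dimmest, their myoepithelial differences were 1.36, 0.27 and 1.28. Probe sets of a gene can read different ends or transcripts, and which of these differ here was not tested.

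**Figure D4:**
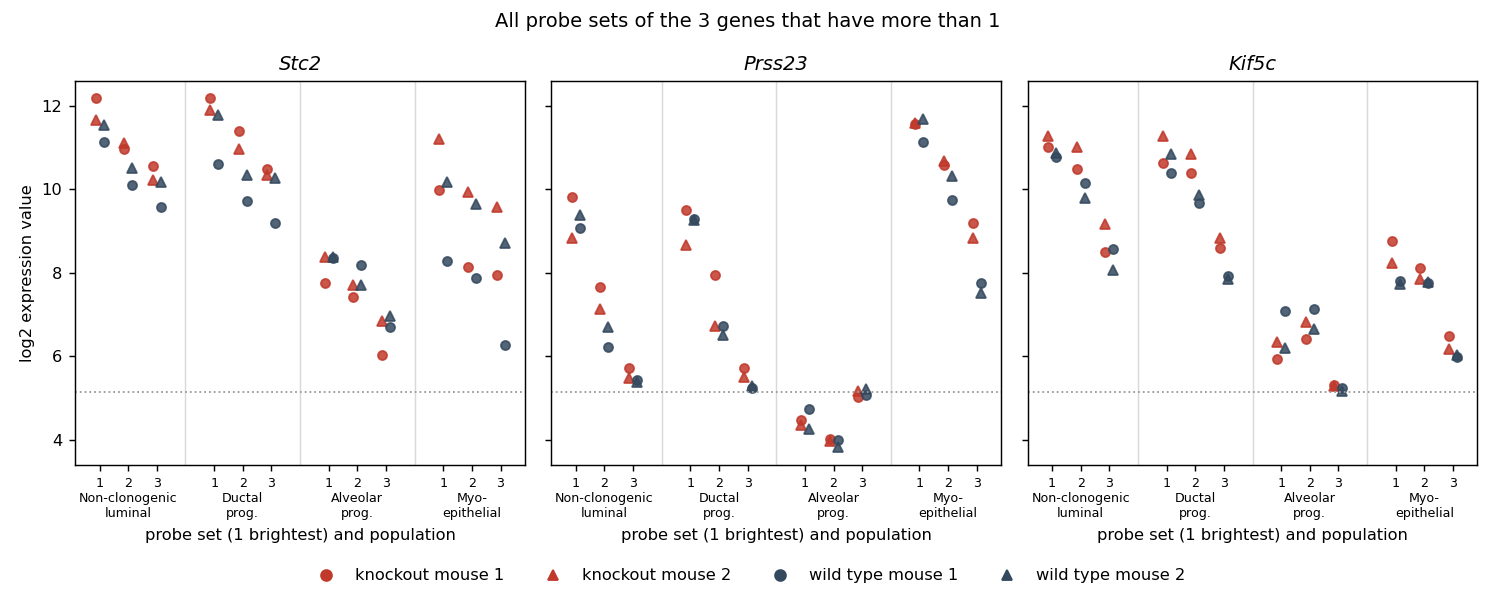
log2 expression value (vertical axis) of every probe set of Stc2, Prss23 and Kif5c, numbered from 1 for the brightest within each population, knockout in red left of wild type in dark blue, circles for mouse 1 and triangles for mouse 2; the dotted line is the lower quartile of all probe sets, 5.13. All 3 probe sets of each gene have higher Sca1 positive than alveolar values, by a narrow margin for the dimmest of Prss23, while the gap between the genotypes depends on the probe set.

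Non-clonogenic luminal cells and ductal progenitors differ in CD49b, and no difference between them in the 10 genes passed the test. All 10 had the higher mean in non-clonogenic luminal cells, by 0.01 (Stc2) to 0.37 (Slc35f3), with a median of 0.19 against 0.02 over all genes, and 0 of 10 were called against 0.795% of all genes (136, of which 7 higher and 129 lower). The 95% confidence intervals of the 10 differences together ran from -0.84 to 1.15. The alveolar markers differed between the same arrays: 8 of 13 were called lower in non-clonogenic luminal cells, with Csn3, a milk casein, at -5.10 ± 0.18 (adjusted p = 3.55e-08) and Kit, the receptor of stem cell factor, at -3.65 ± 0.19 (adjusted p = 5.2e-07). Cited2 was lower too, at -2.20 ± 0.29 (adjusted p = 0.00175), a call lost without either knockout mouse (adjusted p = 0.0946 and 0.16). Their part in the small differences of the 10 genes was not tested.

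The gap between mice of one genotype was wide in these genes against genes of like level. Its median was not taken over the other hormone-sensing markers, of which Pgr and Greb1 also differed between the wild-type mice, as given below. The median gap between the 2 knockout mice was 0.70 in non-clonogenic luminal cells and 0.63 in ductal progenitors, and between the 2 wild-type mice 0.46 and 0.53. Over the 3539 genes with a mean log2 value of at least 9 in the Sca1 positive arrays, which holds the members' range, the same gaps had medians of 0.25, 0.16, 0.20 and 0.26. The gap went the same way in both populations for 10 of 10 members in knockout mice, against 64% of those 3539 genes, and for 9 of 10 in wild-type mice, against 72.8%, the exception being Prss23. Both populations came from the same mice, so this is a description of 4 animals.

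**Figure D5:**
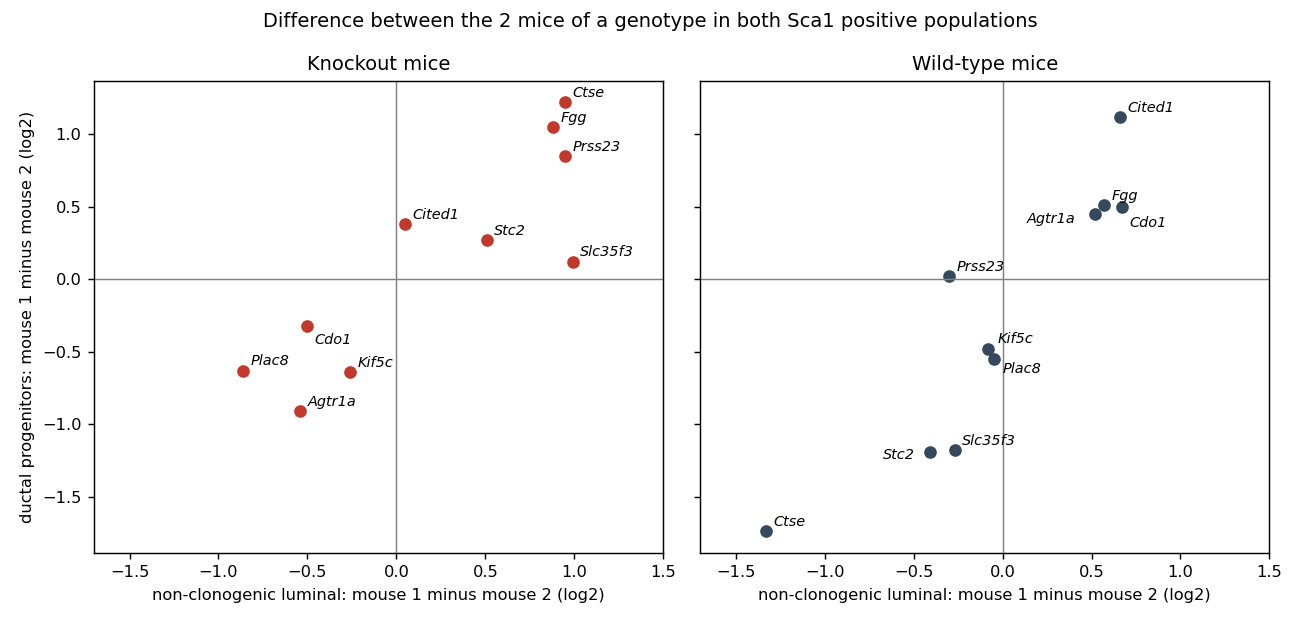
Mouse 1 minus mouse 2 in non-clonogenic luminal cells (horizontal axis, log2) against the same in ductal progenitors (vertical axis, log2), for each of the 10 genes, with knockout mice on the left and wild-type mice on the right. The points lie in the lower left and upper right quadrants except Prss23 in wild-type mice, which is close to 0 in ductal progenitors.

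The genes did not vary as 1 block. After the mean of each genotype and population was removed, the deviations of Cdo1 and Agtr1a correlated at r = 0.90, those of Cited1 and Fgg at 0.88 and those of Ctse and Slc35f3 at 0.81, over 16 arrays that share 4 mice. With 2 arrays a group the deviations mirror each other, so 16 arrays hold 8 separate values. The pairs named so far had the highest correlations of all pairs. Without the 2 wild-type alveolar arrays, left out after seeing the data, their correlations were 0.80, 0.59 and 0.82. Other pairs changed more. Cited1 and Agtr1a went from 0.72 to 0.15, Cited1 and Kif5c from 0.30 to -0.68, and Plac8 and Fgg from 0.15 to -0.81. Plac8 and Kif5c correlated at 0.74 (0.56 without those arrays), while Agtr1a and Ctse ran opposite, at -0.55 (-0.87). In knockout mice Prss23, Fgg and Ctse were higher in mouse 1 and Plac8 and Agtr1a in mouse 2, in both Sca1 positive populations.

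In the Sca1 positive arrays of wild-type mouse 1 Stc2 (11.12 and 10.59) and Ctse (9.05 and 8.43) were the lowest of the 8 arrays, the other 6 lying at 11.53 to 12.17 for Stc2 and 9.26 to 10.48 for Ctse. The members lowest there were 2 of 10, a share near the 16% of all genes, so it is no result about the members. Of the 13 other hormone-sensing markers, 5 were lowest in the same arrays (Esr1, Pgr, Greb1, Tbx3 and Xbp1), 1 was highest (Foxa1) and the others were neither. Pgr, the progesterone receptor, was at 9.84 and 9.84 against 10.98 to 11.89 in the other 6 arrays, Esr1, the estrogen receptor, at 10.83 and 10.61 against 11.12 to 12.04, and Greb1, an estrogen-induced gene, at 5.14 and 4.86 against 6.60 to 8.51. Cited1, Fgg and Cdo1 were not low in this mouse, whose non-clonogenic luminal array held the highest Cited1 value of all 16 arrays, 11.59.

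The alveolar array of this mouse was the highest of the 4 alveolar arrays for 7 of the 10 genes, 70%, against 25.3% of all genes. Prss23, among them, was under the lower quartile in all 4, which leaves 6 of 9. Of the 193 genes at least 2 log2 units higher in the Sca1 positive than in the alveolar arrays, 35.2% were highest in it. Cited1 stood 2.02 above the next alveolar array, Fgg 1.41, Agtr1a 0.93, Plac8 0.78 and Kif5c 0.74. Stc2, Ctse and Slc35f3 were not highest there, and of the 13 other hormone-sensing markers only Foxa1 and Wnt4 were, 15.4%. Gains of 1 log2 unit or more over the other 3 arrays numbered 2 of the 10 members, 6 of those 193 genes and 12 of all genes. The part of cells of another population in that array was not tested. Without wild-type mouse 2, which leaves wild-type mouse 1 as the only wild-type value, Cited1 was called in alveolar progenitors at -2.10 (adjusted p = 0.012). Without wild-type mouse 1 the difference turned to 0.61 (adjusted p = 0.4). The lone wild-type array is assumed in both to vary like the other groups.

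Of the other hormone-sensing markers, some were called in the knockout. Of 13 measured, 5 were called higher in the knockout over the Sca1 positive arrays and 0 lower, with a median difference of 0.44 over the list. Over all genes 17.1% were called, 1317 higher and 1599 lower, with a median difference of 0.06. Ly6d, a surface protein of the Ly6 family, read 11.94 and 12.20 in knockout and 10.45 and 10.34 in wild-type non-clonogenic luminal cells, and was higher over both populations by 1.87 ± 0.22 (adjusted p = 0.000616). Fxyd2, a regulatory subunit of the sodium pump, was higher by 2.02 ± 0.29 (adjusted p = 0.00169), Pgr by 1.21 ± 0.32 (adjusted p = 0.0263), Esr1 by 0.76 ± 0.17 (adjusted p = 0.0113) and Prom1, a membrane glycoprotein, by 0.76 ± 0.16 (adjusted p = 0.00893). With 1 mouse left out in turn, Ly6d was called all 4 times, Fxyd2 lost its call without knockout mouse 2 (adjusted p = 0.0576), and Pgr and Esr1 were called only when wild-type mouse 2 was the one left out. Without wild-type mouse 1 Pgr differed by 0.61 (adjusted p = 0.171) and Esr1 by 0.55 (adjusted p = 0.0878). Prom1 was not called without knockout mouse 2 or wild-type mouse 1 (adjusted p = 0.0932 and 0.0963). A difference between the 10 genes and this list was not tested.

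Other cell markers differed between the same groups of arrays. In ductal progenitors the alveolar list averaged 8.33 and 8.77 in the knockout and 9.26 and 8.80 in the wild type. Of its 13 genes, 3 were called lower there: Kit at -1.76, Elf5 at -1.61 and Wfdc18 at -1.39. The others were not called, and 4 of the 13 had a higher knockout mean. The fibroblast list averaged 6.68 and 6.47 in the knockout and 8.12 and 6.95 in the wild type. Of its 6 genes, Dcn was called lower, at -1.84. Without wild-type mouse 1 these differences were -1.73, -1.04, -1.19 and -1.51, in the order given. Over all genes 7.44% were called in these arrays. The signal of the 3' probe set of Gapdh minus that of its middle probe set is a sign of RNA integrity. It was 0.15 and 0.12 in knockout and 0.60 and 0.39 in wild-type ductal progenitors. In alveolar progenitors it went the other way, at 0.49 and 0.23 in the knockout and 0.14 and 0.18 in the wild type. The same signal of Actb was 0.05 and 0.06 in knockout and 0.12 and 0.27 in wild-type ductal progenitors. The part of these differences in the values of the 10 genes was not tested.

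The genes most like the 10 in pattern were found by Pearson correlation over the 16 arrays with the mean of the members' scaled values. Ube2q2 (r = 0.987), Mtmr7 (0.986), Dipk1a (0.986), Syt7 (0.981) and Capn8 (0.979) came first, then Il18r1, Ypel4, Dnaic1, Acsbg1 and Rin3 at 0.977 to 0.975. Ube2q2 averaged 10.43 in non-clonogenic luminal cells, 10.39 in ductal progenitors, 8.04 in alveolar progenitors and 8.61 in myoepithelial cells. Each member is itself part of this mean and was chosen as high in Sca1 positive and low in alveolar arrays. High correlations among the members were therefore built in. They were 0.90 to 0.98 for 9 genes and 0.42 for Prss23, which was highest in myoepithelial cells.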

How the data were processed

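The deposited table holds 1 log2 value for each probe set and array, from Affymetrix arrays of amplified RNA. RMA and limma are named per the submitters' processing notes, with neither a role nor a version; the log2 scale was read from the values (3.40 to 13.60, array medians 6.35 to 6.40). For background correction, filters and batches, no step is named in the sources used here. Of 45141 probe sets, 28898 had 1 gene symbol; per gene the one with the highest mean over the 16 arrays was used (17097 genes). One limma model (3.58.1, R 4.3.3) with 8 group means, the mouse as a random block and a mean-variance trend was fitted to all genes, with Benjamini-Hochberg adjustment at 0.05. Differences are log2, knockout minus wild type, ± standard error. Precision is limited by 2 mice per genotype. The script was tested on simulated data. The members and the gene lists were chosen with earlier results of these data known. Named genes are the members, genes of the lists, called or not, and the 10 genes most like the members. Not every called gene of the lists is named. The pairs of mice come from shared parents in the labels; deviations of paired arrays from their group means correlated at 0.07, -0.01, 0.06 and -0.04 in non-clonogenic luminal, ductal, alveolar and myoepithelial arrays.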

Additional observations from a re-analysis of the deposited data

Results flagged for a closer look

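In 4 cases each knockout mouse differed from the wild-type mouse of its own parents in one direction in one population and in the opposite direction in another. All 4 were of Stc2 or Fgg. The share of such cases over all genes was not counted, so their number is no result about the members. Stc2 was higher in both knockout mice in non-clonogenic luminal cells (1.06 and 0.14) and lower in both in alveolar progenitors (-0.60 and -0.01), so that the knockout differences of the 2 populations lay 0.90 apart. In ductal progenitors (1.58 and 0.12) its difference lay 1.15 above that in alveolar progenitors. Between alveolar progenitors and myoepithelial cells (1.70 and 1.02) its differences lay -1.66 apart. These are values of the brightest probe set, and by the second brightest the myoepithelial difference of Stc2 was 0.27. Fgg was lower in both knockout mice in non-clonogenic luminal cells (-0.01 and -0.32) and higher in both in myoepithelial cells (0.93 and 0.86), which lay -1.06 apart. These differences between populations were not tested, and 1 of the 2 values is within 0.14 of 0 in 4 of the 6 gene and population combinations given.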

How the results depend on the processing

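With the parent pair as a replicate block, 0 of the 10 members were called in any of the 7 comparisons, and all-gene counts were 452, 1606, 110, 216, 3783, 695 and 141 against 353, 1272, 106, 173, 2916, 806 and 136. Of 2020 recomputed member differences, 1896 stayed within the error, 118 moved and 6 became called. None was called at the outset, and 151 changed sign, among them Cited1 in alveolar progenitors (-2.10 to 0.61) and Ctse over the Sca1 positive arrays (-0.35 to 1.18). The 6 calls were Kif5c over the Sca1 positive arrays with the mean of its probe sets (1 member called, 0.61 ± 0.17, adjusted p = 0.0305), Slc35f3 in ductal progenitors, Cited1 in alveolar progenitors, Ctse over the Sca1 positive arrays (1.18, adjusted p = 0.0454) and Cited1 in the interaction (1.01, adjusted p = 0.0288) without wild-type mouse 2, and Slc35f3 without its ductal array alone. Without wild-type mouse 2, only 1 wild-type array was left in each population, so the calls made there are no result about the members. Within each comparison, 0 to 1 members were called with a mouse or, chosen after seeing the data, a single array left out. All-gene counts were less stable: without 1 mouse they ran from 0 to 906 in non-clonogenic luminal cells, 17 to 3393 in ductal progenitors, 3 to 315 in alveolar progenitors, 13 to 1391 in myoepithelial cells, 233 to 4177 over the Sca1 positive arrays, 1 to 2632 in the interaction and 42 to 281 between non-clonogenic luminal cells and ductal progenitors. Under the 8 other settings over genes they ran from 86 to 515, 69 to 1606, 80 to 389, 0 to 225, 1037 to 3783, 627 to 856 and 126 to 190. The causes were not tested.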
